A study of Mus musculus with 2 samples.

Results

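The 36 genes described here encode the transporters, enzymes and regulators that take glucose into a cell, split it to pyruvate, exchange lactate, feed pyruvate to the mitochondrion, and build or break glycogen. They were found by symbol among the 32285 genes of the count matrix, and all 36 were matched. The study profiled cells of the dentate gyrus of 30-day-old mice by droplet-based single-cell RNA sequencing of transcript 3' ends. Its control mice were Nestin-Cre Tg, Phf2+/+ and its conditional knockout (cKO) mice were Nestin-Cre Tg, Phf2flox/flox, so that both groups carried the Cre transgene (B6.Cg-Tg(Nes-cre)1Kln/J) and differed at Phf2, which encodes a histone demethylase. The Nestin promoter drives Cre in neural progenitors, so deletion is aimed at the neural lineages and not at microglia, vessels or blood. The protocol names 4 mice per genotype, and the matrix holds 1 library per genotype, which the barcodes number 1 and 2. Neither number could be tied to a genotype, so every value below is given for library 1 first and library 2 second, with no direction by genotype.

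Glycolysis turns glucose into pyruvate, which either enters the mitochondrion through pyruvate dehydrogenase or becomes lactate, and lactate leaves or enters cells through monocarboxylate transporters. In brain, glycogen is held mainly by astrocytes, and astrocytes and neurons are known for different isoforms of the same enzymes, such as aldolase C in astrocytes and enolase 2 in neurons. Radial glia-like stem cells (RGL) of the dentate gyrus share many genes with astrocytes, while the intermediate progenitors (nIPC), neuroblasts and granule neurons that descend from them take on neuronal programs.

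After filters and removal of called doublets, 8029 and 8129 cells were kept, with a median of 8092 and 7232 unique molecular identifiers (UMIs, counted transcripts) per cell, and 22 cell barcodes occurred in both libraries. Clustering, done without the 36 genes and the other listed pathway genes, gave 35 clusters, and marker genes named 17 classes with at least 20 cells in each library. The names stand for cells like the named type. They include 579 and 693 astrocytes, 560 and 792 RGL, 133 and 135 nIPC, 963 and 951 neuroblasts, 49 and 106 granule neurons, 291 and 356 oligodendrocytes and 2921 and 2471 microglia. Levels are given in CPM, the UMIs of a gene scaled to the UMI total of its class and library, which do not depend on transcript length, and intervals cover counting error only. Cluster 1 (71 and 112 cells) held markers of oligodendrocyte precursors and of committed oligodendrocytes and is called by its number. Among the pericytes (185 and 194 cells), cluster 28 (68 and 92 cells, a median of 20172 UMIs) also held endothelial markers. All 8 of these were found in at least 25% of its cells, and their part in the pericyte values was not tested. Choroid plexus cells numbered 29 and 339, and 1 of their clusters came almost wholly from library 2 (1 and 110 cells). Choroid plexus markers summed to 9.50 and 396 CPM in astrocytes and to 2061 and 20173 in barcodes under 100 UMIs, which hold free RNA. The 7 granule neuron markers, Prox1 and Calb1 among them, were all detected in granule neurons (2150.1 and 2107 CPM), and microglia were the largest class, with choroid plexus and vascular cells also present in the dissected tissue. The share of free RNA was estimated from the lowest marker list of other classes, without counting error, and did not exceed 2.01% in any class and library. In library 1 the estimate rested on 0 UMIs in choroid plexus cells and fibroblasts and on 1 in granule neurons and nIPC. It is thus no firm ceiling for these classes. At the estimated shares, free RNA could give no more than 4.33 CPM of Aldoc in the classes compared below.

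Summed over all 36 genes, transcripts of the pathway were highest in astrocytes (9322 and 8180.1 CPM) and choroid plexus cells (10220.1 and 6055), then granule neurons (6455 and 6873), RGL (6169.9 and 5803) and Cajal-Retzius cells (5346 and 5207). Choroid plexus came first in library 1 and stood below astrocytes and granule neurons in library 2. Erythroid cells (1366 and 1331), border macrophages (1508 and 1509) and neuroblasts (1738 and 1676) had the lowest sums. Which class came first depended on the gene: astrocytes had the highest mean level of 9 members, choroid plexus of 8, granule neurons of 6, microglia of 4, Cajal-Retzius cells of 3, endothelial cells of 2, and RGL, border macrophages, fibroblasts and smooth muscle of 1 each. In 8 of the 9 astrocyte genes, in all 4 microglial genes and in 5 of the 6 granule neuron genes the lower library of the first class still stood above both libraries of the second class, against 4 of the 8 choroid plexus genes. For Pfkfb2, which is among these astrocyte genes, the third class, Cajal-Retzius cells, overlapped astrocytes. Leaving mitochondrially encoded genes out of the totals changed none of the 36 first classes.

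**Figure D1:**
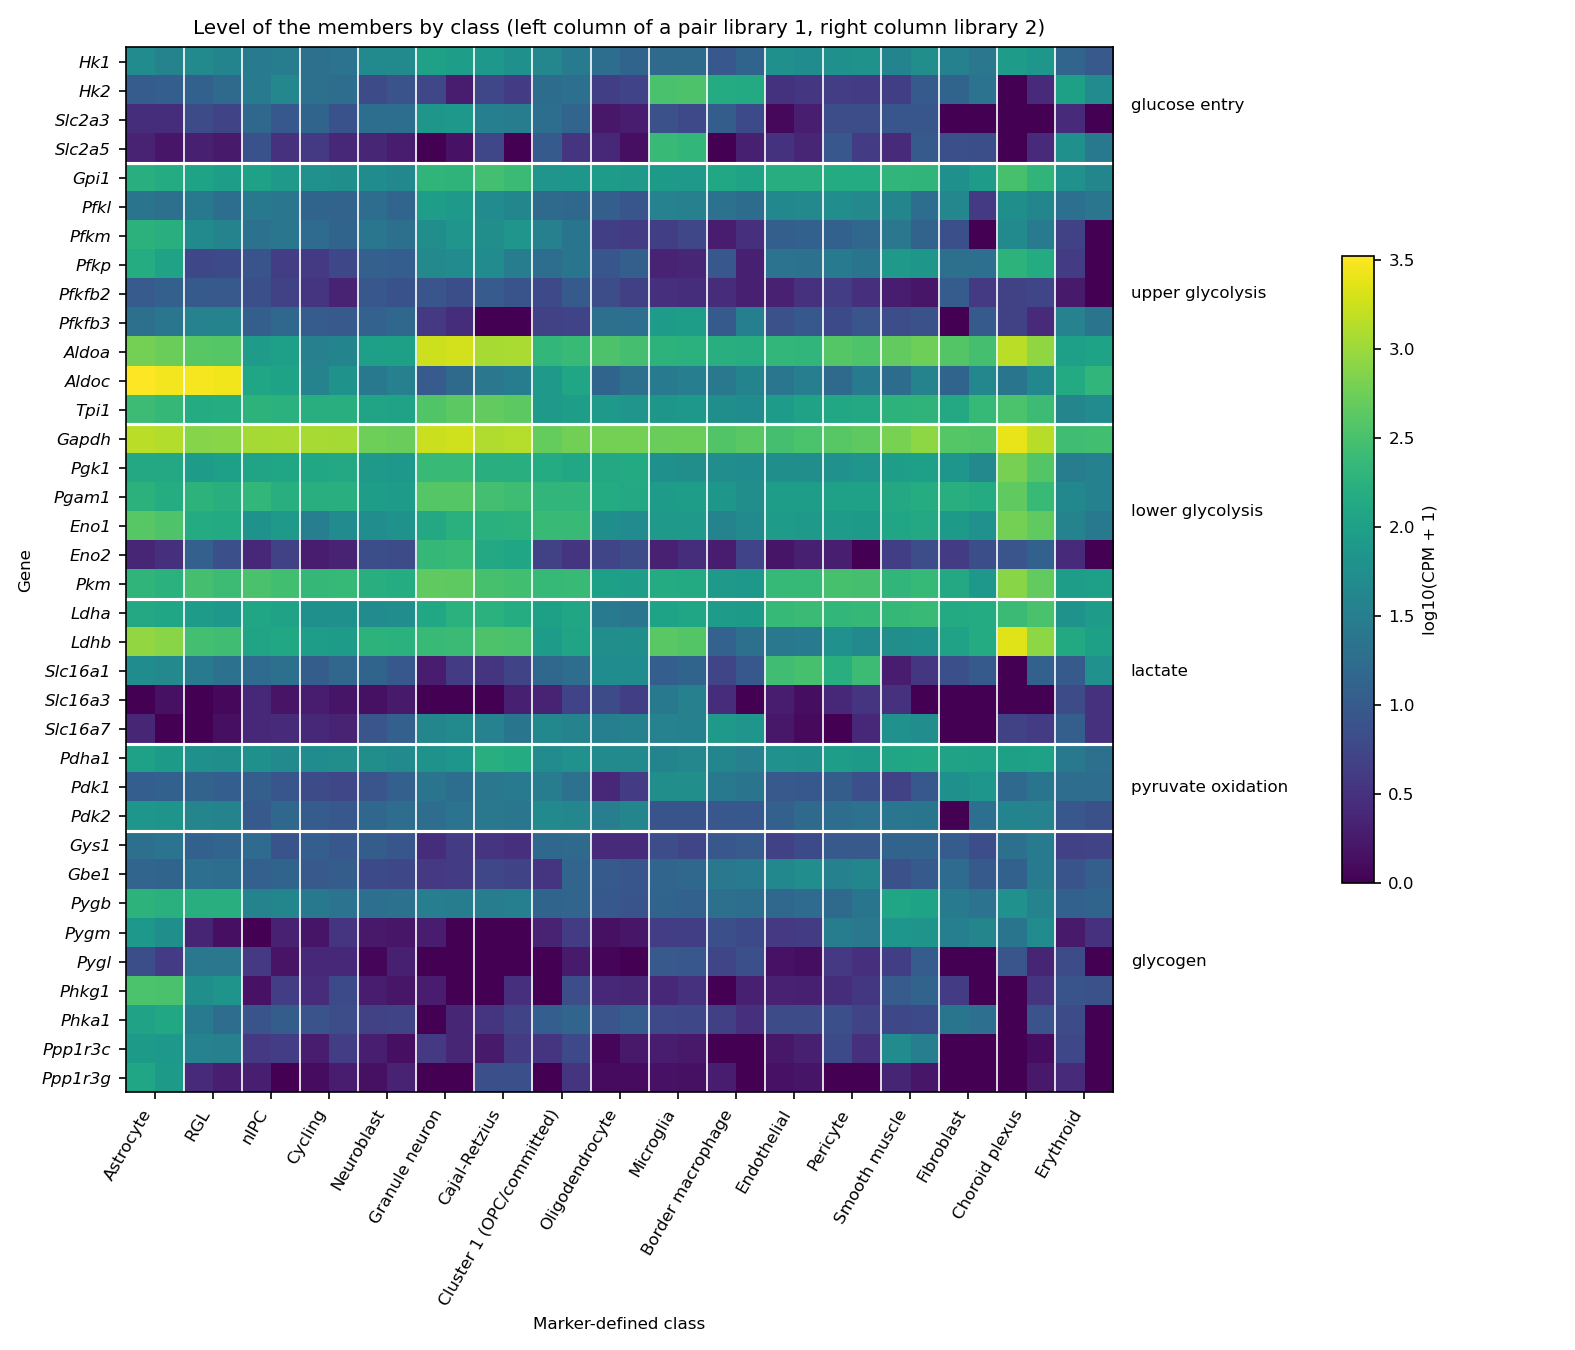
Level of each of the 36 genes (rows, ordered by pathway step) in the 17 classes (pairs of columns, library 1 left and library 2 right), coloured by the log10 of CPM + 1. Aldoc is brightest in astrocytes and RGL, Eno2 in granule neurons and Cajal-Retzius cells, Aldoa in granule neurons, Hk2 and Slc2a5 in microglia, and the glycogen rows at the bottom are bright mainly in astrocytes.

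Glucose enters through hexose transporters and is trapped by hexokinase. Hk1, the hexokinase typical of brain, was highest in granule neurons (103 and 93.9 CPM) and lowest in border macrophages (8.13 and 12.5). Hk2, the inducible hexokinase typical of muscle, was highest in microglia (322 and 342 CPM), followed by border macrophages (144 and 139), and stood at 9.50 and 10.3 in astrocytes and 4.68 and 0.939 in granule neurons. As a share of Hk1 plus Hk2 UMIs, Hk2 made up 95.4% (94.9 to 95.8) and 95.7% (95.1 to 96.1) in microglia, with exact 95% Clopper-Pearson intervals in parentheses, and 94.6% and 91.8% in border macrophages. The share was 50.9% and 58.6% in nIPC, 16.2% and 21.8% in astrocytes and 4.35% and 0.990% in granule neurons, so myeloid cells used mostly one hexokinase transcript and granule neurons almost entirely the other. Slc2a3, which encodes the neuronal glucose transporter GLUT3, was highest in granule neurons (71.1 and 73.3 CPM), then in Cajal-Retzius cells (32.0 and 30.4), and stood at 1.85 and 1.89 in astrocytes. Slc2a5, which encodes the fructose transporter GLUT5, reached 238 and 214 CPM in microglia. The next class, erythroid cells, held 57.9 and 25.5 CPM of Slc2a5 and 99.8 and 48.9 of Hk2, and microglial markers summed there to 8309.8 and 4292 CPM, against 26559 and 25601 in microglia; their part in these 2 values was not tested.

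Upper glycolysis runs from phosphoglucose isomerase to the triose phosphates. Gpi1, the isomerase, was highest in Cajal-Retzius cells (290.2 and 247 CPM) and choroid plexus (316 and 203), whose values overlapped. Of the 3 phosphofructokinase subunits, which catalyse the committed step, Pfkm was highest in astrocytes (179 and 161 CPM), Pfkp in choroid plexus (188 and 146) with astrocytes next (148 and 106), and Pfkl in granule neurons (91.7 and 80.3). The mix differed by class: Pfkm and Pfkp made up 51.3% and 56.3% and 42.6% and 37.1% of the 3 in astrocytes, where Pfkl made up 6.11% (4.95 to 7.44) and 6.63% (5.37 to 8.09), whereas Pfkl made up 88.0% (85.8 to 89.9) and 84.5% (81.6 to 87.0) in microglia. RGL, granule neurons and nIPC lay between, with Pfkl shares of 33.3% and 29.4%, 48.0% and 41.0% and 48.6% and 46.7%. Pfkfb3, a kinase that makes the activator of phosphofructokinase, was highest in microglia (83.5 and 89.9 CPM) and next in RGL (35.8 and 36.6), and no UMI was found in the Cajal-Retzius cells of either library, a count of 0 that allows up to 2.34 and 3.14 CPM. Its relative Pfkfb2 was low everywhere, at 9.27 and 11.2 CPM in astrocytes, its first class, and 9.08 and 8.65 in RGL, the next. Cajal-Retzius cells (9.36 and 7.33 CPM) overlapped astrocytes.

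Aldoc, aldolase C (ENSMUSG00000017390, mm10 chr11:78322968-78327781, plus strand), was the most abundant member in astrocytes, at 3307 (3253 to 3362) and 2823 CPM (2776 to 2872) with exact 95% Poisson limits in parentheses, and in RGL, at 2974 (2919 to 3029.7) and 2743 CPM (2697 to 2789). The 2 classes overlapped, and no other class exceeded 204 CPM, the value of erythroid cells in library 2. Aldoa, the aldolase of most tissues, was highest in granule neurons (1779.6 and 1912 CPM), followed by Cajal-Retzius cells (1145 and 1176) and choroid plexus (1420.2 and 855), whose libraries lay on either side of the Cajal-Retzius values, and lowest in cycling progenitors (33.0 and 38.0). Of Aldoa plus Aldoc UMIs, Aldoc made up 88.2% (87.6 to 88.7) and 87.7% (87.2 to 88.2) in RGL and 84.4% (83.8 to 84.9) and 84.0% (83.4 to 84.5) in astrocytes. Along the neurogenic classes the share was 57.6% and 53.0% in nIPC, 21.0% and 25.1% in neuroblasts and 0.523% (0.251 to 0.960) and 0.804% (0.554 to 1.13) in granule neurons, so the class order in each library was the same and neighbouring intervals did not overlap. Oligodendrocytes held 3.55% and 5.88%, microglia 12.9% and 14.9% and cluster 1 27.0% and 33.5%. Tpi1, which interconverts the triose phosphates, was highest in Cajal-Retzius cells (474 and 434 CPM) and granule neurons (360.2 and 431), which lay close without overlap, and lowest in erythroid cells (38.6 and 48.9).

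Lower glycolysis yields ATP and pyruvate, and its enzymes were found in every class. Gapdh ranged from 276 and 287 CPM in erythroid cells to 2494 and 1364 in choroid plexus, where library 1 was far above library 2, and stood at 1742 and 1844 in granule neurons. Pgk1, the first ATP-yielding kinase, was highest in choroid plexus (637 and 383 CPM) and next in granule neurons (237 and 242). Pgam1, a mutase, was highest in granule neurons (385 and 395 CPM), inside the span of choroid plexus (456 and 236), and Pkm, pyruvate kinase, was highest in choroid plexus (779.8 and 473) and next in granule neurons (458 and 447). The 2 enolases divided the classes. Eno1, which most cells use, was highest in choroid plexus (610.3 and 458 CPM) and astrocytes (399 and 356); reads of Eno1 and its near-identical copy Eno1b (501 UMIs against 18425) cannot be fully separated. Eno2, the neuron-specific enolase, reached 218 and 236 CPM in granule neurons and 131 and 118 in Cajal-Retzius cells, and at most 11.5 in any of the other 15. Its share of both enolases was 62.1% (57.0 to 67.1) and 57.9% (54.6 to 61.3) in granule neurons and 0.347% and 0.588% in astrocytes, and in neuroblasts it was 10.4% and 8.40%.

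**Figure D2:**
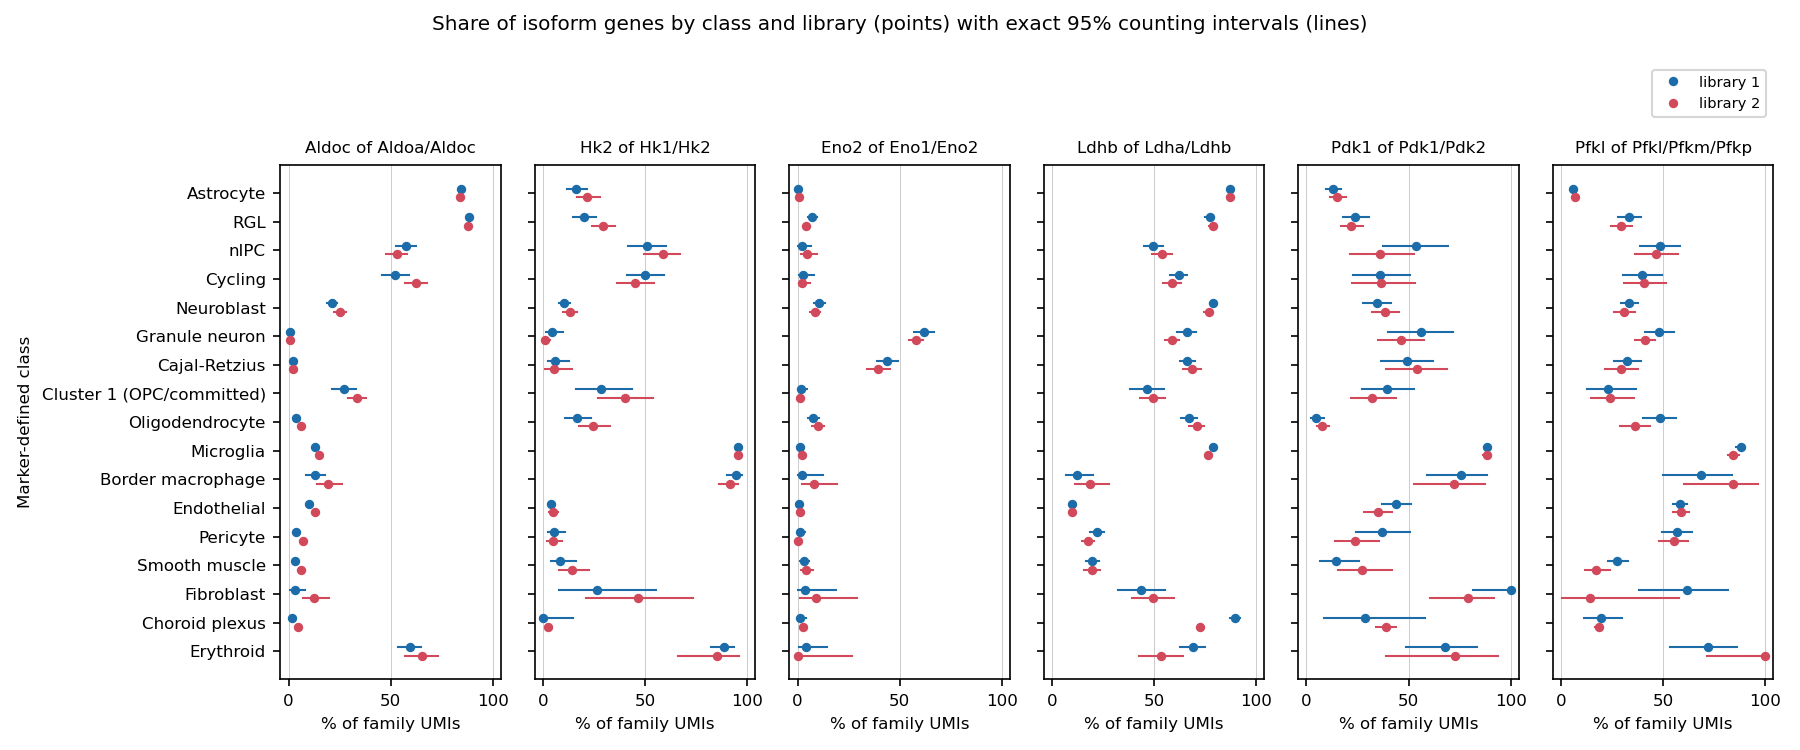
Share (%) that 1 gene takes of the UMIs of its isoform family, by class (rows) and library (blue library 1, red library 2), with exact 95% counting intervals as lines; one panel per family. Aldoc exceeds 80% in astrocytes and RGL alone, Hk2 and Pfkl are highest in myeloid and erythroid cells, Eno2 exceeds 30% in granule neurons and Cajal-Retzius cells alone, and Ldhb is lowest in border macrophages and vascular cells.

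Lactate dehydrogenase is built from A and B subunits, the A subunit being known for favouring lactate formation. Ldhb was highest in choroid plexus (2230.1 and 835 CPM), where the libraries stood far apart, and next in astrocytes (892 and 779.8), which overlapped library 2 of choroid plexus. Ldha ran from 26.6 and 22.9 CPM in oligodendrocytes to 252 and 318 in choroid plexus and 226 and 249 in endothelial cells. The balance split the classes: Ldhb made up 87.2% (86.2 to 88.2) and 87.1% (86.0 to 88.1) of the pair in astrocytes, 78.7% and 76.2% in microglia and 79.0% and 76.7% in neuroblasts, against 9.85% (8.73 to 11.1) and 9.59% (8.42 to 10.9) in endothelial cells, 21.8% and 17.5% in pericytes and 19.8% and 19.4% in smooth muscle. Border macrophages (12.1% and 18.8%) were with the vascular classes and not with microglia.

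The 3 monocarboxylate transporters carry lactate across the membrane, and each had its own first class. Slc16a1, which encodes MCT1, was highest in endothelial cells (275 and 312 CPM), then pericytes (159.7 and 259), and reached 51.2 and 44.0 in astrocytes and 49.7 and 49.7 in oligodendrocytes. The pericyte values include cluster 28 with its endothelial markers. Slc16a7, which encodes the high-affinity MCT2 of neurons, was highest in border macrophages (76.8 and 66.6 CPM) and stood at 40.2 and 45.1 in granule neurons, 35.4 and 34.7 in microglia and 32.1 and 34.0 in oligodendrocytes. Slc16a3, which encodes the lactate exporter MCT4, was scarce, and only microglia held more than 6 CPM in both libraries (25.8 and 33.2 CPM); astrocytes held 0 and 0.421, from 2 UMIs in all. Of the 3 transporters' UMIs, Slc16a1 made up 99.4% and 99.8% in endothelial cells and 97.4% and 99.1% in astrocytes, whereas Slc16a7 made up 97.7% and 93.2% in granule neurons, where Slc16a1 made up 2.27% and 6.80%. Microglia held all 3, with Slc16a3 at 36.1% and 41.3% and Slc16a7 at 49.4% and 43.1%. Oligodendrocytes held mostly Slc16a1 (57.0% and 57.0%) and Slc16a7 (36.8% and 39.0%).

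Pyruvate dehydrogenase commits pyruvate to the mitochondrion and is switched off by pyruvate dehydrogenase kinases. Pdha1, its catalytic subunit, was highest in Cajal-Retzius cells (158 and 145 CPM) and stood at 104 and 82.3 in astrocytes and 38.1 and 42.1 in microglia. Pdk1 was highest in fibroblasts (56.8 and 69.0 CPM, from 18 and 23 UMIs) and next in microglia (54.1 and 54.1), and Pdk2 in astrocytes (69.5 and 64.8). Their balance was opposite in microglia and oligodendrocytes, with Pdk1 at 88.4% (86.7 to 90.0) and 88.4% (86.3 to 90.2) of the pair in the former and 4.76% (2.40 to 8.36) and 7.51% (4.92 to 10.9) in the latter. Astrocytes (13.04% and 15.2%) were near oligodendrocytes, and granule neurons (56.1% and 46.3%) lay between.

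Glycogen genes set astrocytes apart. The 9 members summed to 936 and 866 CPM in astrocytes, 343 and 335 in RGL and 276 and 254 in smooth muscle, and to no more than 153 in any of the other 14 classes. Phkg1, the catalytic subunit of phosphorylase kinase, stood at 328 (311 to 345) and 326 CPM (310.1 to 343) in astrocytes, at 56.1 and 65.9 in RGL and at or below 12.2 elsewhere. Phka1, a regulatory subunit of the same kinase, followed (104 and 124 CPM in astrocytes, 27.8 and 16.9 in RGL). Both glycogen-targeting subunits of protein phosphatase 1, which switch glycogen synthase on, were first in astrocytes: Ppp1r3c at 82.9 and 73.3 CPM, with smooth muscle at 48.5 and 30.8 and RGL at 35.3 and 32.8, and Ppp1r3g at 121 and 81.5, with no more than 6.28 in any other class. Ppp1r3g thus separated astrocytes from RGL (1.60 and 1.01 CPM), and Ppp1r3c did so less. Gys1, glycogen synthase, was low throughout, at 18.8 and 27.9 CPM in choroid plexus and 19.2 and 20.8 in astrocytes, which overlapped. Gbe1, the branching enzyme, was not an astrocyte gene: it was highest in endothelial cells (42.9 and 51.8 CPM) and pericytes (33.8 and 39.7), against 13.2 and 12.4 in astrocytes. Here too the pericytes include cluster 28 with its endothelial markers.

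Glycogen phosphorylase, which breaks glycogen down, has a brain (Pygb), a muscle (Pygm) and a liver (Pygl) isoform, and each had a different pattern. Pygb was close in astrocytes (188 and 169 CPM) and RGL (167 and 163), without overlap, and reached 120.2 and 108 in smooth muscle. Pygm was present in astrocytes (73.7 and 55.6 CPM) and smooth muscle (69.9 and 66.0), which overlapped, and nearly absent from RGL (1.34 and 0.402). Pygl was highest in RGL (24.3 and 24.1 CPM), then microglia (8.61 and 8.15), and stood at 6.02 and 3.16 in astrocytes. Of the 3 isoforms' UMIs, Pygm made up 27.5% (24.9 to 30.2) and 24.4% (21.8 to 27.0) in astrocytes and 0.693% and 0.215% in RGL, while Pygl made up 2.25% and 1.39% and 12.6% (10.3 to 15.2) and 12.9% (10.8 to 15.2). In microglia Pygl made up 35.0% and 35.2%.

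Since the astrocyte-first glycogen genes and the microglia-first genes were each high together in 1 class, the 250 bases before their RefSeq start sites (GRCm38.p6, the build the submitters' processing notes name as mm10, printed 5' to 3' on the gene's strand) are shown, with each match to ACGTG on either strand in capitals. ACGTG is the core of the hypoxia response element and also part of the CACGTG E-box, so a match to the latter counts on both strands. The sequences printed first belong to glycogen genes that were highest in astrocytes.
Ppp1r3c (chr19:36736605-36736854, minus strand): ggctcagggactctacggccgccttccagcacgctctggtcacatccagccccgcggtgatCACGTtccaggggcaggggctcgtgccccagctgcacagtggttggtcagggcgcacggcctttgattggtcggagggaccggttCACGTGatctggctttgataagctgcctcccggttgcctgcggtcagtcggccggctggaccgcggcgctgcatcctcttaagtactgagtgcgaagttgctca
Ppp1r3g (chr13:35967656-35967905, plus strand): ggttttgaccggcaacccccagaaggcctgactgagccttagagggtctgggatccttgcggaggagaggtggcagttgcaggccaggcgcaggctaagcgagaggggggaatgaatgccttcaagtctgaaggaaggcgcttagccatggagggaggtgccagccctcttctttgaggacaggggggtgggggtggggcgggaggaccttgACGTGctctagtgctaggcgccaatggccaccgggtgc
Pygb (chr2:150786546-150786795, plus strand): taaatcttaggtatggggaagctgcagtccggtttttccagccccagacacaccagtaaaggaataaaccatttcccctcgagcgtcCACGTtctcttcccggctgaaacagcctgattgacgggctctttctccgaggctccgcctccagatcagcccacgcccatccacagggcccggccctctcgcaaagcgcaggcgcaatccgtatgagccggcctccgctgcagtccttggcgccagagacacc
Phkg1 (chr5:129879089-129879338, minus strand): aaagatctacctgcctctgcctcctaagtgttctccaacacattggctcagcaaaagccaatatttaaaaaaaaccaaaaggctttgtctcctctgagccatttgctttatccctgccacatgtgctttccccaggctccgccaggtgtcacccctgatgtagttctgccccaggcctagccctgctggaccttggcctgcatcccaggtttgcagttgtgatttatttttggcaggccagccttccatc
The next 4 belong to the genes that were highest in microglia.
Hk2 (chr6:82774455-82774704, minus strand): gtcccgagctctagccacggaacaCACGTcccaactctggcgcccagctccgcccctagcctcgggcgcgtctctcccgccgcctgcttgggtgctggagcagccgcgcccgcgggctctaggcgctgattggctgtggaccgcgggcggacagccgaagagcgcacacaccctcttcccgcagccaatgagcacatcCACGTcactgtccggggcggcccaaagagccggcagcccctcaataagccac
Slc16a3 (chr11:120948817-120949066, plus strand): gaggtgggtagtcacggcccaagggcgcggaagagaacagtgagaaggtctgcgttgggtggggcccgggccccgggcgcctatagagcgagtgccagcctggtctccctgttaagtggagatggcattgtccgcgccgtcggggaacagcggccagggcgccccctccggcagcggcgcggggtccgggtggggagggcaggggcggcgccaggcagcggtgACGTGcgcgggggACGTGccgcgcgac
Pfkfb3 (chr2:11553930-11554179, minus strand): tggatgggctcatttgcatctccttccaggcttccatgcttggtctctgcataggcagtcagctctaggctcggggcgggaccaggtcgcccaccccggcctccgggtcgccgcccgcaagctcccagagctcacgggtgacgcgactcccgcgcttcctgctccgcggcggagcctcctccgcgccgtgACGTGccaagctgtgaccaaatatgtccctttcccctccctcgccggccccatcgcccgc
Slc2a5 (chr4:150119094-150119343, plus strand): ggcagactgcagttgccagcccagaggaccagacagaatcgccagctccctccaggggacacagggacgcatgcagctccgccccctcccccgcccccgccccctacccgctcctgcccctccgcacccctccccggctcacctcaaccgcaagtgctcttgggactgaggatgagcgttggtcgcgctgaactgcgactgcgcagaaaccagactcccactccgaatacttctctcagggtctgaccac

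Ppp1r3c held matches beginning 189, 104 and 103 bases before its start site, the last 2 of which are the 2 strands of 1 CACGTG, Ppp1r3g held 1 at 38 bases and Pygb 1 at 163 bases, while the Phkg1 sequence held none. Phka1, whose window is not printed, held none either. Among the microglial genes, Hk2 held matches at 226 and 52 bases, Slc16a3 at 27 and 14 bases and the printed Pfkfb3 window, the first listed of 2, at 60 bases, and the Slc2a5 sequence held none. The other Pfkfb3 window held matches at 53 and 52 bases, which are the 2 strands of 1 CACGTG. Counted over windows from 250 bases before to 50 after the start, 24 of the 50 windows of the members (48.0%) held the letters, against 19.6% of 32851 mouse windows. By gene, 20 of the 34 members with a window held at least 1, against 21.8% of all genes. These are counts of letters in a window, and they were not tested and say nothing about binding. The member and mouse windows were not matched for base content. Of the Aldoa windows, 2 overlap and hold the same match, which was counted in each.

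Differences between classes were tested on UMIs summed by library and class, with library as a block, over all genes that passed the filter on low counts (edgeR's quasi-likelihood test, Benjamini-Hochberg adjusted p under 0.05). With 2 libraries and 1 residual degree of freedom the spread is borrowed from all genes, so these p-values do not measure the spread between mice. The libraries are 1 of each genotype, so each fitted difference is taken over both genotypes. A class difference that depended on genotype could not be told apart from other spread. The borrowing was complete for RGL against astrocytes, nIPC and neuroblasts against RGL, and granule neurons against astrocytes. In these comparisons a gene's own spread did not enter its p-value. Values after ± are standard errors of the fitted log2 difference, and 4 of the 6 comparisons share the astrocyte sums. Every one of the 166 member calls had the same sign in each library taken alone. The calls were made from these same 2 libraries, so this is no separate check of them.

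RGL carried less of most of the pathway than astrocytes, with wide gaps in Ppp1r3g, Pygm and Pfkp and narrow ones in Aldoc and Pygb. Of 33 members tested, 4 were higher and 23 lower in RGL, with a median of -0.93 on the log2 scale against 0.01 over all genes; in this comparison 25.2% of the 12262 genes tested were called higher and 27.3% lower. Slc16a3, Slc16a7 and Slc2a5 did not pass the filter. By step, 7 of 9 glycogen members, 6 of 9 upper glycolysis members, 4 of 6 lower glycolysis members, 3 lactate members, Hk1, Pdk2 and Pdha1 were lower. Pfkp stood at 4.81 and 5.23 against 148 and 106 CPM in astrocytes (-4.93 ± 0.16; adjusted p = 1.69e-196, edgeR), with the other 2 phosphofructokinase subunits at -2.35 ± 0.10 for Pfkm and -0.24 ± 0.17, not called, for Pfkl. The 4 glycogen regulators separated the classes without overlap. Ppp1r3g stood at 1.60 and 1.01 against 121 and 81.5 CPM (-6.57 ± 0.22), Phkg1 at 56.1 and 65.9 against 328 and 326 (-2.73 ± 0.094), Phka1 at -2.71 ± 0.12 and Ppp1r3c at -1.51 ± 0.12. Pygm, the muscle phosphorylase, was also lower (-6.56 ± 0.25), Pygb only slightly (-0.43 ± 0.087), and Pygl was higher in RGL (24.3 and 24.1 against 6.02 and 3.16 CPM, 2.11 ± 0.23).

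The remaining members named by the smallest adjusted p in this comparison were housekeeping steps and lactate dehydrogenase. Ldhb was -1.86 ± 0.081 and its partner Ldha -0.93 ± 0.10, Eno1 -1.71 ± 0.086, Gapdh -1.13 ± 0.075, Tpi1 -0.99 ± 0.086 and Aldoa -0.87 ± 0.080 (adjusted p 2.83e-112 to 4.05e-21, edgeR). Aldoc differed less (-0.41 ± 0.069), and higher in RGL were also Eno2 (10.95 and 6.23 against 1.39 and 2.11 CPM, 1.91 ± 0.40), Pfkfb3 (0.48 ± 0.15) and Pkm (0.26 ± 0.084). Scaling to total counts instead of TMM moved the median of all genes to 0.33 and the split of all calls to 5488 higher and 2079 lower; with it Aldoc (-0.10), Pygb (-0.11) and Hk1 (-0.029) were no longer called, and Pgam1 turned from -0.23 to 0.086. DESeq2 kept Pygl as the only higher member, and with doublets kept Pfkfb3 turned to -0.0053. With doublets kept, Hk2 (0.15 ± 0.22, not called) turned to -1.89 and was called lower, as was Pdk1 (-0.64 against -0.31 ± 0.22, not called). Dissociation response genes summed to 3500.3 and 4028 CPM in RGL and 1084 and 948 in astrocytes, and the median mitochondrial share was 6.74 and 7.78% against 8.71 and 10.4%; their part in these differences was not tested. Astrocyte markers, all 9 detected in both classes, summed to 1848 and 1853 CPM in RGL and 6117 and 7051 in astrocytes. RGL included the shallow cluster 7 (106 and 131 cells), while the shallow, astrocyte-like cluster 11 (340 and 232 cells) was left out of the astrocytes. With low-depth clusters named, 4 members were higher and 24 lower, with a median of -1.06.

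Of the other genes of these pathways, the glucose and pyruvate list gave 4 higher and 14 lower of 23 tested, the glycogen list 1 higher and 5 lower of 15 tested and the pentose phosphate list 3 higher and 1 lower of 7 tested. Those named by the smallest adjusted p were lower in RGL: Ugp2, which makes the glucose donor for glycogen (-2.05 ± 0.087), Slc2a1, the transporter GLUT1 (-2.32 ± 0.11), and Ppp1r3d, another targeting subunit (-4.67 ± 0.32). Of the hypoxia response list, which holds Vegfa and Epas1 among others, 1 was higher and 6 lower of 14 tested.

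**Figure D3:**
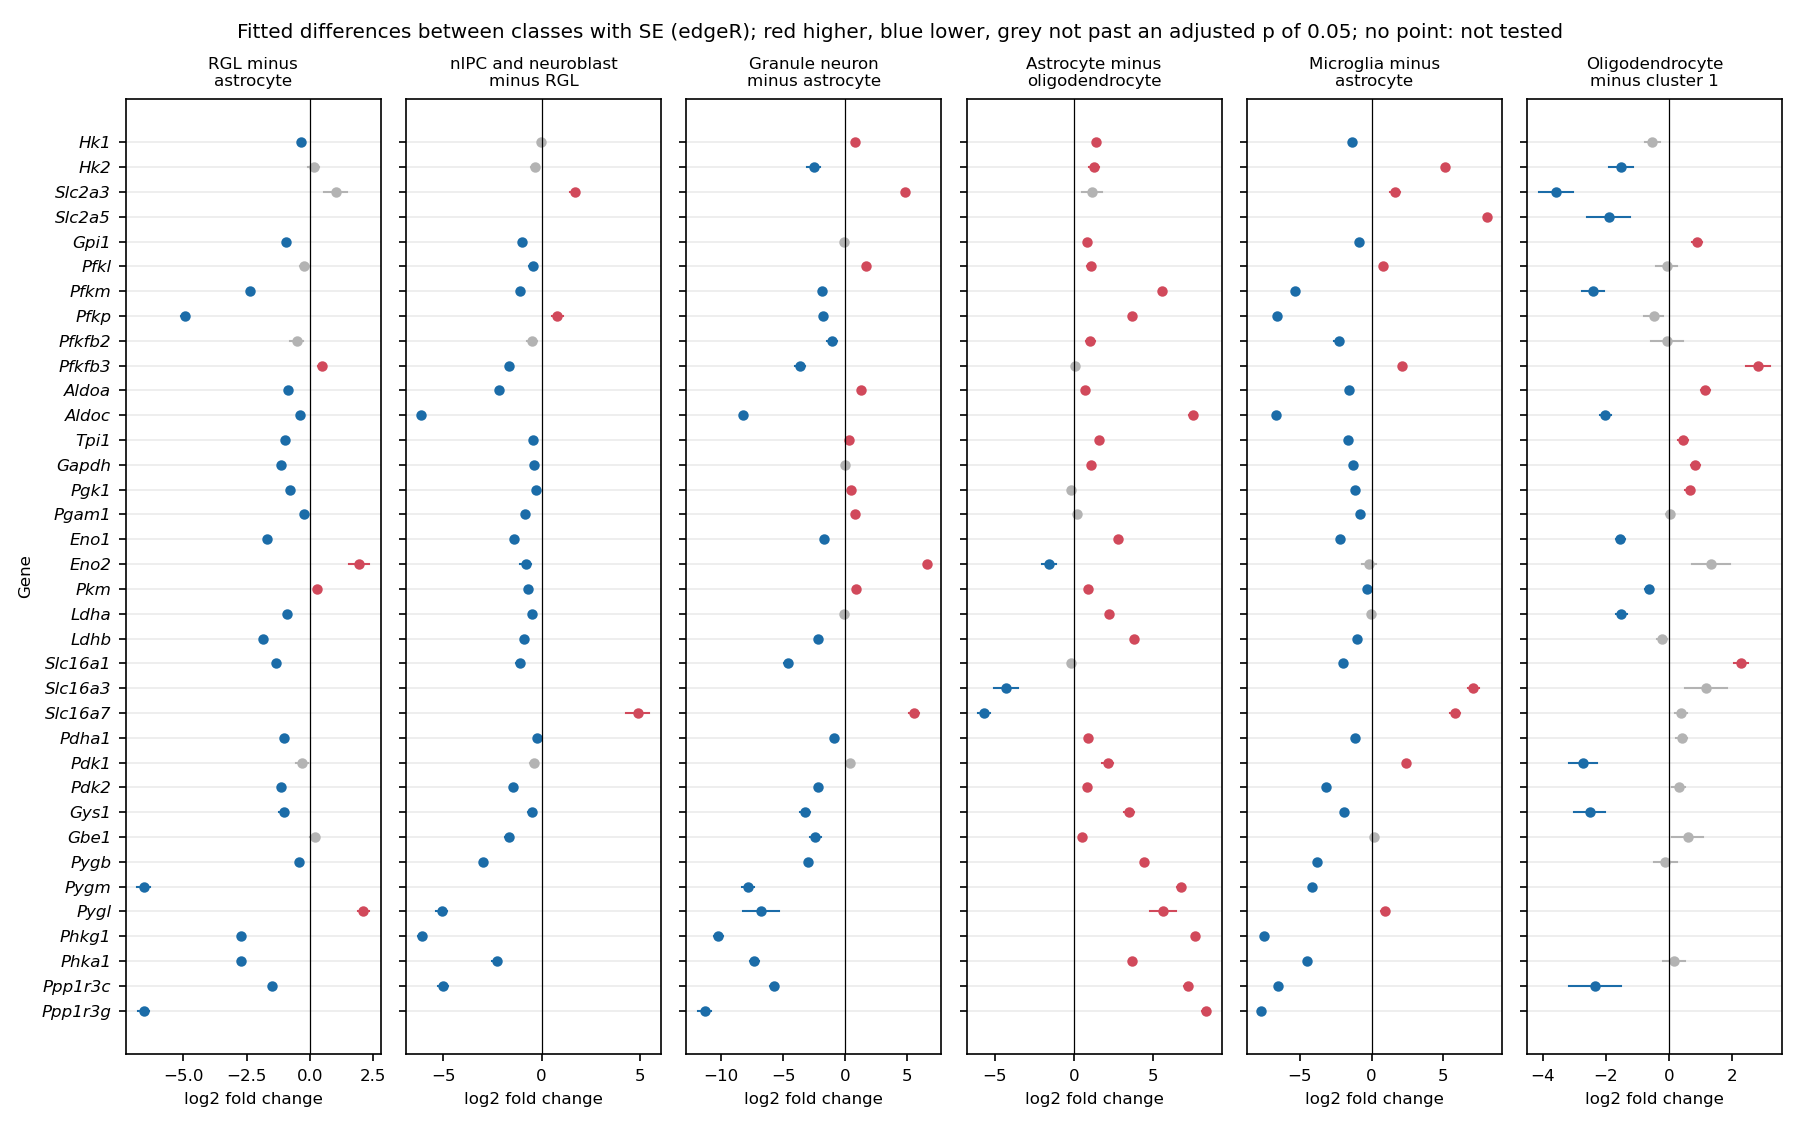
Fitted log2 difference of each member in the 6 comparisons (panels), with standard errors as lines; red points were called higher, blue lower, grey not called, and members that did not pass the filter have no point. Blue points dominate the first 2 panels and the glycogen rows of the granule neuron and microglia panels, while Hk2, Slc2a5 and Slc16a3 lie far to the right in the microglia panel.

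Neurogenic progenitors, nIPC and neuroblasts summed, were lower than RGL for most members, with aldolase C and the glycogen genes furthest apart. Neuroblasts gave most of the sum, with 9359807 and 7632303 UMIs against 2092333 and 1799442 in nIPC, and neither class was tested alone. Hk2 stood at 28.2 and 41.7 CPM in nIPC, 5.56 and 7.08 in neuroblasts and 11.5 and 15.7 in RGL. Glycogen members summed to 78.4 and 78.9 CPM in nIPC, 40.4 and 40.1 in neuroblasts and 343 and 335 in RGL. Of 32 members tested in the sum, 3 were higher and 25 lower, with a median of -0.82 against 0.02 over all genes, and 36.0% of the 13455 genes tested were called higher and 35.6% lower. Ppp1r3g, Pygm, Slc16a3 and Slc2a5 did not pass the filter. Aldoc stood at 42.8 and 47.2 against 2974 and 2743 CPM (-6.11 ± 0.086), and Aldoa was lower too (-2.15 ± 0.082). All 7 glycogen members tested were lower: Pygb was -2.99 ± 0.10, Phkg1 -6.08 ± 0.21, Ppp1r3c -4.997 ± 0.24, Pygl -5.07 ± 0.29, Phka1 -2.29 ± 0.21, Gbe1 -1.65 ± 0.21 and Gys1 -0.50 ± 0.21, the last of which was not called by DESeq2 or with total-count scaling. Pygl, the RGL-first phosphorylase, thus stood at 0.611 and 0.954 against 24.3 and 24.1 CPM. All 6 lower glycolysis members were lower in the sum of both classes, by less: Eno1 was -1.40 ± 0.093, with Eno2 at -0.81 ± 0.26 (not called by DESeq2), Gapdh -0.39 ± 0.070 and Pgk1 -0.27 ± 0.10. Pgk1 was not called by DESeq2, with no filter or with total-count scaling (-0.15). In nIPC alone this step was not lower: its 6 members summed to 1841 and 1781 CPM, against 1499 and 1456 in RGL. Neuroblasts held 938 and 898. Mean levels of Gapdh, Pgk1, Pgam1, Pkm and also Tpi1 were higher in nIPC than in RGL, and those of Eno1 and Eno2 lower. Also among the 12 with the smallest adjusted p were Ldhb (-0.88 ± 0.080; Ldha -0.49 ± 0.10), Pfkfb3 (-1.63 ± 0.15; Pfkfb2 -0.49 ± 0.24, not called), Gpi1 (-1.005 ± 0.10) and Pdk2 (-1.44 ± 0.15; Pdk1 -0.39 ± 0.22, not called).

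The 3 remaining calls were higher in the progenitors, and 2 of them are genes that were high in granule neurons. Slc16a7 stood at 6.29 and 9.12 against 0 and 0.402 CPM, or 33.0-fold (counting interval 8.98 to 275) higher from 158 against 2 UMIs, and Slc2a3 at 17.2 and 16.01 against 5.34 and 4.22 (1.68 ± 0.24; adjusted p = 5.48e-12, edgeR). Pfkp was 0.80 ± 0.26, a call that DESeq2 did not keep. Dissociation genes summed to 6465 and 4948 CPM in nIPC, 4473 and 4109 in neuroblasts and 3500.3 and 4028 in RGL, and microglial markers to 435 and 335, 150.1 and 171 and 232 and 189; their part was not tested. The 6 nIPC markers were at a like level in neuroblasts (846 and 794 CPM) and nIPC (754 and 687), so these markers do not divide the 2 classes. Of other pathway genes, 1 higher and 9 lower of 14 tested were in the glycogen list and 8 higher and 13 lower of 26 tested in the glucose and pyruvate list; Gaa, the lysosomal glycogen-degrading enzyme (-2.83 ± 0.12), Pcx, pyruvate carboxylase (-2.84 ± 0.12), Ugp2 (-1.98 ± 0.10) and Phkb, a phosphorylase kinase subunit (-2.44 ± 0.15), had the smallest adjusted p and were lower. The pentose phosphate list gave 3 higher and 2 lower of 7 tested, and the hypoxia list 3 higher and 6 lower of 14 tested.

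Granule neurons and astrocytes differed in the main isoform of aldolase, enolase and the monocarboxylate transporters, though Eno1 remained a large part of enolase in granule neurons. Granule neurons held few glycogen gene transcripts other than those of Pygb. The 9 glycogen members summed to 40.2 and 38.0 CPM in them, of which Pygb made up 30.9 and 28.6. Of 34 members tested, 10 were higher and 20 lower in granule neurons, with a median of -1.76 against -0.067 over all genes, and 34.0% of the 12196 genes tested were called higher and 37.2% lower. All 9 glycogen members were lower, though DESeq2 did not call Pygl or Gbe1. Ppp1r3g gave no UMI in granule neurons against 909 in astrocytes, at least 107-fold lower counted from 3 UMIs over both libraries. Phkg1 (1 UMI) was 1045-fold (counting interval 187 to 41294) lower, Phka1 (3 UMIs) 122-fold (counting interval 41.6 to 592) and Pygm (1 UMI) 205-fold (counting interval 36.7 to 8122). Ppp1r3c was -5.73 ± 0.32 and Pygb, the one phosphorylase found in granule neurons at more than 1 UMI, -3.001 ± 0.17; Pygl, at 0 against 41 UMIs, was at least 4.82-fold lower. Aldoc was -8.24 ± 0.21 and Aldoa 1.26 ± 0.13, while Eno2 was 6.56 ± 0.23 and Eno1 -1.72 ± 0.14. In both families each isoform was without overlap between the classes.

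Transport and lactate genes divided too. Slc2a3 (4.82 ± 0.29) and Slc16a7 (5.53 ± 0.41) were higher in granule neurons and Slc16a1 (-4.62 ± 0.34) and Ldhb (-2.19 ± 0.14) lower (adjusted p 1.86e-59 to 1.60e-40, edgeR), while Ldha was -0.12 ± 0.14 and not called. Pfkl (1.67 ± 0.18), Hk1 (0.79 ± 0.16), Pkm (0.84 ± 0.13) and Pgam1 (0.81 ± 0.13) were higher too, and Hk2, Pfkm and Pfkp were lower; DESeq2 did not call Hk1, Hk2 or Pgk1. Gapdh stood at 1742 and 1844 against 1427 and 1306 CPM (-0.034 ± 0.13, not called), and it was called higher (0.39) with total-count scaling, as were Ldha (0.30) and Gpi1 (0.34), a scaling that moved the median of all genes to 0.35 and all calls to 5481 higher and 3537 lower. Of the other pathway genes, Pgm2l1, which makes glucose bisphosphate, was 6.65 ± 0.22, and Ugp2 (-5.89 ± 0.21) and Slc2a1 (-4.18 ± 0.22) were lower; the glycogen list gave 2 higher and 9 lower of 15 tested, the glucose and pyruvate list 9 higher and 13 lower of 24 tested, the pentose phosphate list 1 higher and 4 lower of 7 tested and the hypoxia list 2 higher and 6 lower of 12 tested. Granule neurons were few and deep, with a median of 20867 and 19498 UMIs per cell against 7070.0 and 6192 in astrocytes, and astrocyte markers summed to 15.9 and 21.6 CPM in them.

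**Figure D4:**
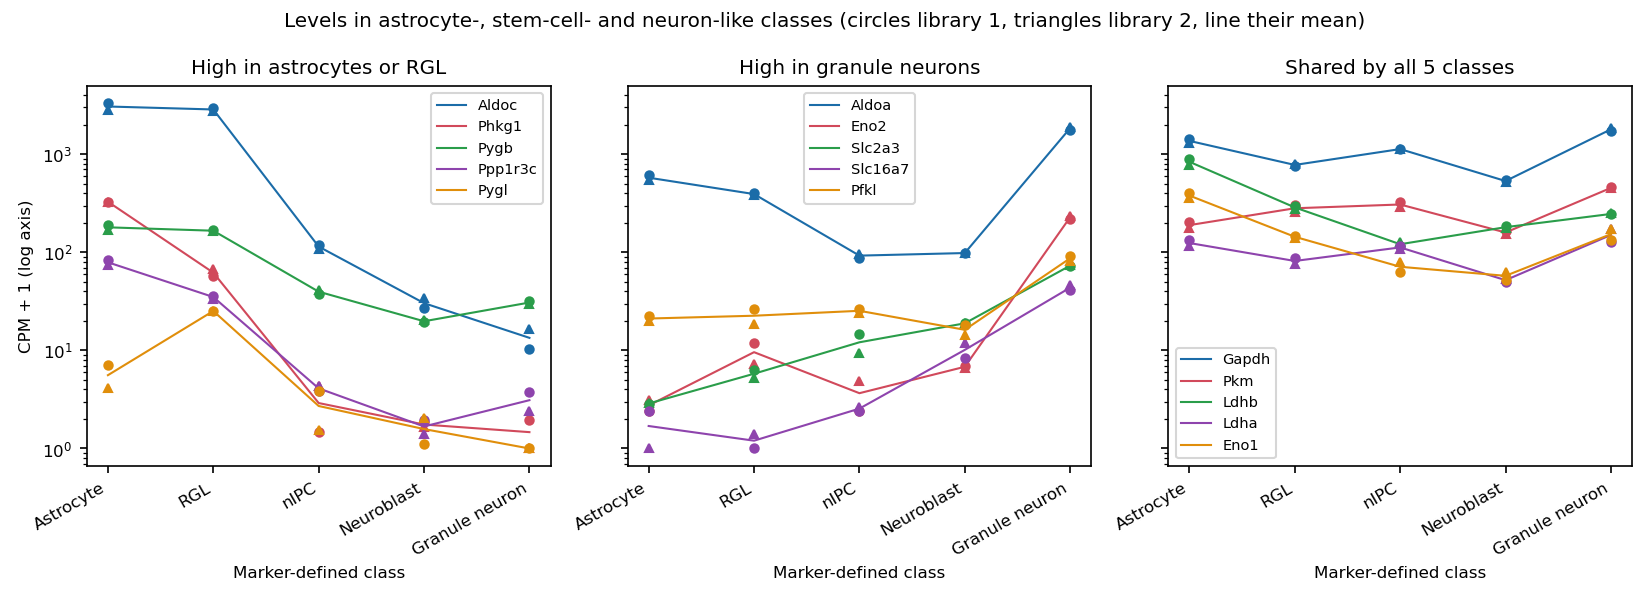
Level (CPM + 1, log axis) of 15 members in astrocytes, RGL, nIPC, neuroblasts and granule neurons; circles are library 1, triangles library 2 and lines join the means of both. The left panel falls from RGL to nIPC, the middle panel is highest in granule neurons, and the right panel stays within about 1 order of magnitude; the order of classes on the axis is not a measured time course.

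Against oligodendrocytes, which also descend from neural progenitors, astrocytes were higher for most members. Of 35 tested, 27 were higher and 3 lower in astrocytes, with a median of 1.28 against 0.01 over all genes, and 36.4% of the 12511 genes tested were called higher and 35.6% lower. Slc2a5 did not pass the filter. All 9 glycogen members were higher, among them Phkg1 (328 and 326 against 1.54 and 1.39 CPM, 7.70 ± 0.17), Ppp1r3g (8.36 ± 0.25), Ppp1r3c (7.24 ± 0.27), Phka1 (3.66 ± 0.14), Pygm (6.77 ± 0.26) and Pygb (4.43 ± 0.13). Pygl, with 41 against 1 UMI, was 68.1-fold (counting interval 11.6 to 2753) higher. Gbe1 (0.53 ± 0.23) was not called by DESeq2, with doublets kept, with a mitochondrial limit of 10%, with no filter or with low-depth clusters named. Aldoc was 7.51 ± 0.20, with Aldoa at 0.74 ± 0.13, and Pfkm (5.61 ± 0.15) and Pfkp (3.67 ± 0.16) stood above Pfkl (1.06 ± 0.20). Ldhb (3.83 ± 0.14), Ldha (2.23 ± 0.12) and Eno1 (2.78 ± 0.12) completed the 12 with the smallest adjusted p (1.09e-19 to 5.77e-14, edgeR). Lower in astrocytes were Slc16a7 (1.39 and 0 against 32.1 and 34.0 CPM, -5.68 ± 0.36), Eno2 (-1.56 ± 0.44) and Slc16a3, with 2 against 67 UMIs, which was 20.2-fold (counting interval 5.37 to 170.0) lower. Slc16a1 (51.2 and 44.0 against 49.7 and 49.7 CPM, -0.15 ± 0.12), Pgk1, Pgam1, Pfkfb3 and Slc2a3 were not called. With doublets kept, Slc16a1 (-0.44) and Pgk1 (-0.34) were called lower in astrocytes, and Pfkfb3 (0.52) and Slc2a3 (1.40) higher. Pgam1 was called higher with total-count scaling (0.27), a mitochondrial limit of 10% (0.24) or low-depth clusters named (0.36). Of the other pathway genes, Taldo1, transaldolase of the pentose phosphate path (-3.44 ± 0.14), and Bpgm (-2.54 ± 0.12) were lower in astrocytes and Pgm1, phosphoglucomutase (3.36 ± 0.14), higher. The pentose phosphate list gave 1 higher and 5 lower of 7 tested, the glycogen list 8 higher and 2 lower of 15 tested and the glucose and pyruvate list 14 higher and 3 lower of 23 tested, while the hypoxia list gave 5 higher and 7 lower of 14 tested. Oligodendrocytes were deeper (23807 and 21762 UMIs per cell) and held 3398 and 3138 CPM of dissociation genes; the part of these was not tested.

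Microglia carried a set of entry and regulatory genes that were scarce in astrocytes, and less of most other members. Of 36 members tested, 9 were higher and 24 lower in microglia, with a median of -1.22 against 0.079 over all genes, and 41.6% of the 13955 genes tested were called higher and 38.3% lower. Slc2a5 stood at 238 and 214 against 1.16 and 0.632 CPM (8.06 ± 0.19) and Hk2 at 322 and 342 against 9.50 and 10.3 (5.14 ± 0.13; adjusted p 3.18e-14 to 5.34e-14, edgeR). Slc16a3, with 1257 against 2 UMIs, was 131-fold (counting interval 36.3 to 1086) higher, and Pfkfb3 (2.14 ± 0.12), Pdk1 (2.37 ± 0.14), Slc16a7 (5.78 ± 0.35), Slc2a3 (1.66 ± 0.36), Pfkl (0.83 ± 0.12) and Pygl (0.96 ± 0.27) were higher as well. DESeq2 did not call Slc2a3 or Pygl. Isoform partners of several of these were lower: Hk1 was -1.38 ± 0.13, Pfkfb2 -2.30 ± 0.29 and Slc16a1 -1.98 ± 0.13, as was Pdk2 (-3.16 ± 0.12). Of the 9 glycogen members, 7 were lower, led by Phkg1 (-7.45 ± 0.14), Ppp1r3g (-7.70 ± 0.17), Ppp1r3c (-6.51 ± 0.16), Phka1 (-4.46 ± 0.12), Pygm (-4.16 ± 0.14) and Pygb (-3.81 ± 0.10). Aldoc (-6.63 ± 0.13), Pfkp (-6.57 ± 0.15) and Pfkm (-5.31 ± 0.13) were lower, with Aldoa at -1.58 ± 0.089. Ldha was -0.022 ± 0.091 and Ldhb -0.998 ± 0.089, the former not called.

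The other pathway genes gave 4 higher and 19 lower of 26 tested for glucose and pyruvate, 5 higher and 9 lower of 17 tested for glycogen, 5 higher and 2 lower of 7 tested for the pentose phosphate path and 2 higher and 6 lower of 14 tested for the hypoxia list. Ppp1r3b, a further glycogen-targeting subunit, was higher in microglia (6.45 ± 0.26), while Ugp2 (-3.38 ± 0.10) and Pgm1 (-2.76 ± 0.11) were lower. Astrocyte markers summed to 25.9 and 34.8 CPM in microglia and microglial markers to 351 and 190.3 in astrocytes. Dissociation genes summed to 42950.3 and 35014 CPM in microglia, far above astrocytes (1084 and 948), and their part in the differences was not tested.

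Within microglia the 6 clusters shared Hk2 and differed in other members. These clusters were drawn from the same cells, so the values describe them with no test. Cluster 8 was led by the homeostatic genes P2ry12 and Tmem119, cluster 15 by P2ry12 and unannotated transcripts, cluster 9 by Il1a and Tnfaip3, cluster 10 by Rgs1 and Fosb, cluster 14 by the chemokines Ccl4 and Ccl3 with Tnf, and cluster 30 by interferon response genes. Hk2 lay between 313 and 382 CPM in all of them. Slc2a5 ran from 90.0 and 80.9 CPM in cluster 14 to 348 and 327 in cluster 15, and Pdk1 was 30.1 and 35.5 in cluster 14, 43.1 and 28.7 in cluster 30 and 103 and 107 in cluster 15. Pfkfb3 (119.8 and 125 CPM in cluster 14, 65.6 and 73.0 in cluster 8), Slc16a3 (50.2 and 58.4 and 19.6 and 21.9 in clusters 14 and 15) and Gapdh (731 and 744 and 416 and 409.7) ran the other way. The chemokine-rich cluster was at one end for Slc2a5, Pfkfb3, Slc16a3 and Gapdh in both libraries. Cluster 15, with 6254 and 6200.5 CPM of dissociation genes, was far below the other 5 clusters (31239 to 54142), while its Hk2 stood at 320.4 and 365 CPM and its Slc16a3 at the low end.

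**Figure D5:**
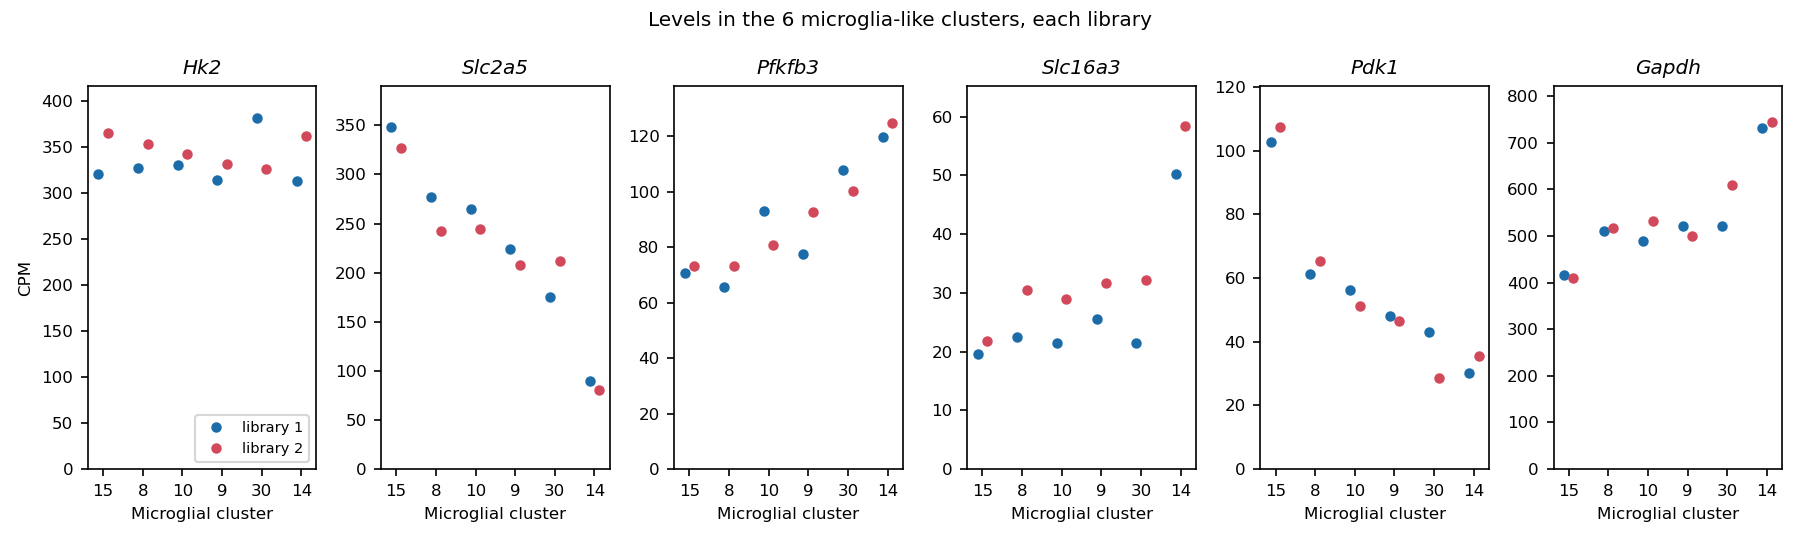
Level (CPM) of 6 members in the 6 microglial clusters, blue library 1 and red library 2, each panel with its own axis from 0. Hk2 is level across clusters, Slc2a5 and Pdk1 are highest in cluster 15 and Slc16a3, Pfkfb3 and Gapdh highest in cluster 14 in both libraries.

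Oligodendrocytes and cluster 1, the less mature oligodendroglial cells, differed in single genes more than as a group. Of 32 members tested, 7 were higher and 11 lower in oligodendrocytes, with a median of -0.074 against 0.00 over all genes, and 25.1% of the 11922 genes tested were called higher and 26.0% lower. With total-count scaling, which moved the median of all genes to -0.63, the split was 3 higher and 15 lower, and over all genes 1458 higher and 5811 lower. Phkg1, Ppp1r3g, Pygl and Pygm did not pass the filter. Slc16a1, whose product supplies lactate from oligodendrocytes to axons, was higher in oligodendrocytes (49.7 and 49.7 against 13.9 and 17.2 CPM, 2.27 ± 0.23; adjusted p = 3.77e-06, edgeR), with Slc16a7 (0.37 ± 0.20) and Slc16a3 (1.17 ± 0.66) not called. Pfkfb3 (2.82 ± 0.38) and Aldoa (1.14 ± 0.14) were higher and Aldoc (-2.02 ± 0.17) lower, so the aldolases moved apart. Gapdh (0.83 ± 0.14), Gpi1 (0.89 ± 0.16) and Pgk1 (0.65 ± 0.14) were higher, calls that total-count scaling ended. Eno1 (-1.54 ± 0.14), Ldha (-1.51 ± 0.17; Ldhb -0.24 ± 0.16, not called), Pfkm (-2.42 ± 0.35), Slc2a3 (-3.58 ± 0.55), Pdk1 (-2.73 ± 0.45; Pdk2 0.30 ± 0.20, not called) and Gys1 (-2.51 ± 0.48) were lower. Cluster 1 held OPC markers at 1845 and 2196 CPM, committed oligodendrocyte markers at 4446 and 3734 and oligodendrocyte markers at 14912 and 12532, against 94866 and 90787 in oligodendrocytes, and microglial markers at 1247 and 288 against 194 and 162; the part of these was not tested. Of other pathway genes, Bpgm (2.01 ± 0.14), the pyruvate carrier subunit Mpc1 (1.48 ± 0.13), Taldo1 (1.42 ± 0.14) and Pdk3 (2.05 ± 0.22) were higher in oligodendrocytes, and the lists gave 6 higher and 6 lower of 22 tested for glucose and pyruvate, 4 higher and 1 lower of 13 tested for glycogen, 4 higher and 1 lower of 7 tested for the pentose phosphate path and 6 higher and 6 lower of 15 tested for the hypoxia list.

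Between the libraries, few members differed in astrocytes, RGL, microglia and granule neurons, and few of all genes did. Among genes with at least 50 UMIs in a class, none of 30 members in astrocytes differed by more than 1.5-fold between libraries, where 6.06% of such genes did. In RGL, 2 of 29 members did (Eno2 and Phka1), against 5.31% of genes. In microglia, 2 of 34 did (Eno2 and Phkg1), against 4.43%, and in granule neurons none of 21, against 7.16%. In choroid plexus, 13 of 24 members were past 1.5-fold, against 58.4% of genes. Past it were also 4 of 21 members in smooth muscle, against 7.78%, 3 of 14 in erythroid cells, against 34.3%, 3 of 23 in cycling progenitors, against 5.06%, and 2 of 8 in fibroblasts, against 18.1%. Pericytes had 2 of 21, against 6.72%, Cajal-Retzius cells 2 of 22, against 8.71%, and oligodendrocytes 2 of 26, against 5.56%. Border macrophages had 1 of 14, against 8.89%, neuroblasts 1 of 29, against 3.85%, and cluster 1 had 1 of 16, against 11.2%. Endothelial cells had 0 of 25, against 7.40%, and nIPC 0 of 18, against 6.12%. With 1 library per genotype, and no link from library to genotype, these differences have no replicate check.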

How the data were processed

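Droplet 3' single-cell RNA sequencing (10x 3' v3.1) was run on 1 library for each of 2 genotypes. The deposited file holds raw UMI counts of 32285 genes for all barcodes, made by the authors with Cell Ranger 4.0.0 and mm10 per the submitters' processing notes. The barcode suffix gave the library, and no level of Phf2 was used to assign a genotype. Cells had at least 1000 UMIs, 500 genes and at most 20% mitochondrial UMIs, and Scrublet doublets (2.74% and 3.01%) were removed. Of the rest, 581 and 436 cells (7.24% and 5.36%) lay in 5 unnamed clusters. Clustering (scanpy 1.11.5) used 2979 variable genes without the pathway lists, 40 components and a resolution of 1. Classes were named by markers. The naming rule was adjusted for granule neurons and cluster 1 after scores were seen, and low-depth clusters whose 10 leading genes held none of their own markers were left unnamed. The members, lists and tests were chosen with earlier results of these data known.

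UMI counts were summed by library and class. The edgeR 4.0.16 quasi-likelihood test (R 4.3.3) used TMM scaling, filterByExpr and library as a block, and was tested on simulated data. Its p-values rest only on how far a class difference varied between these 2 libraries, with a spread borrowed from all genes. These libraries are 1 of each genotype. The labels leave unsaid the makeup of the libraries by mouse. Named members were, in each comparison, the 12 with the smallest adjusted p and their isoform partners, plus members named for a low count or a changed call, chosen after their values were seen. Of other pathway genes, the 4 with the smallest adjusted p were named, except for 1 gene that is not reported here. Alternatives were total-count scaling, DESeq2 1.42.0, no filter, no block, a mitochondrial limit of 10%, a minimum of 2000 UMIs, doublets kept, the pathway lists kept in clustering, free RNA subtracted, each library alone and, chosen after seeing the data, low-depth clusters named. Free RNA was measured in barcodes under 100 UMIs. Gene positions came from GENCODE vM21 and start-site sequences from RefSeq (GRCm38.p6), where 34 of the 36 genes had a window. A second model of Aldoa (8 UMIs) was left out. Gapdh, Pgk1 and Ldha have processed pseudogenes, and the treatment of shared reads is not given in the sources at hand.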

Additional observations from a re-analysis of the deposited data

How the results depend on the processing

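Of the 166 member calls, 153 were called in the same direction with total-count scaling, 138 by DESeq2, 159 with no filter, 157 with no library block, 164 with a minimum of 2000 UMIs, 158 with doublets kept, 166 with the lists kept in clustering and 163 with low-depth clusters named, an alternative chosen after seeing the data. With a mitochondrial limit of 10%, 160 of the 164 with a value were. The direction turned for 3 of these calls: Pgam1 between RGL and astrocytes (0.086, total-count scaling), Tpi1 between oligodendrocytes and cluster 1 (-0.20, total-count scaling) and Pfkfb3 between RGL and astrocytes (-0.0053, doublets kept). Members not called turned too and were then called: Hk2 between RGL and astrocytes (-1.89, doublets kept), Pgam1 between oligodendrocytes and cluster 1 (-0.59, total-count scaling) and, with that scaling, Gapdh (0.39), Gpi1 (0.34) and Ldha (0.30) between granule neurons and astrocytes. Counts of members moved by over 1.5 times in 3 cases: 1 higher in RGL by DESeq2 against 4, 3 higher in oligodendrocytes than cluster 1 with total-count scaling against 7, and 5 lower in astrocytes than oligodendrocytes with doublets kept against 3. The cause was not tested.

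Over all genes DESeq2 called 1299 higher and 1717 lower between RGL and astrocytes against 3090 and 3342 by edgeR, 2971 and 3139 against 4841 and 4796 between progenitors and RGL, 2313 and 2305 against 4150 and 4535 between granule neurons and astrocytes, and 1619 and 1773 against 2988 and 3105 between oligodendrocytes and cluster 1. Total-count scaling gave 5488 and 2079, 5481 and 3537, and 1458 and 5811 in the first, the third and the last of these, 5488 and 4274 between progenitors and RGL, and moved that median of all genes to 0.14. With doublets kept no cluster was named nIPC, so the progenitors were neuroblasts. In each library alone, a value with no test, 81 member differences in library 1 and 71 in library 2 moved by more than 1 standard error, and all calls kept their sign. The calls came from these same libraries, so their sign is no separate check. Subtracting free RNA at its estimated share moved 3 of 202 by more than that. For genotypes no paired analysis was possible, because each has 1 library and neither library could be tied to a genotype. For classes the library block did pair the sums that came from the same library.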

Other observations

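Cluster 11 (340 and 232 cells) had a median of 1823 and 1764.5 UMIs and 13.3% and 14.9% mitochondrial UMIs. Its best marker score was for astrocytes (2.26, with 7 astrocyte markers in at least 25% of its cells). It was left unnamed because it was shallow and none of those markers was among its 10 leading genes. The metallothioneins Mt1, Mt2 and Mt3 and Aldoc led it. Its Aldoc stood at 5259.6 and 5257 CPM, above every named class in both libraries, its Gapdh at 2636 and 2861 CPM and its Ldhb at 1755 and 1796 CPM. Ppp1r3g stood there at 176 and 152 CPM, while Phkg1, at 79.0 and 74.9 CPM, was nearer to RGL than to astrocytes. Depth and mitochondrial share differ along with these levels, and their part was not tested. Cluster 7 (106 and 131 cells, a median of 1843 UMIs) was about as shallow, but RGL markers led it, so it stayed in RGL. Naming low-depth clusters raised astrocytes from 1272 to 1844 cells and RGL from 1352 to 1383.

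Cluster 27, also unnamed (32 and 34 cells, led by major histocompatibility class II genes, Ccl5 and S100a8), held Slc16a3 at 63.8 and 113 CPM and Pygl at 55.8 and 62.5 CPM, both above microglia in each library. Its Pfkp stood at 67.8 and 62.5 CPM, a subunit that microglia held at 1.202 and 1.36 CPM.

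Of the hypoxia response list, chosen for mention after their values were seen, Vegfa stood at 256 and 252 CPM in astrocytes and 48.4 and 38.8 in RGL (-2.87 ± 0.10, RGL minus astrocytes), and Epas1, which encodes a hypoxia-inducible factor subunit, was -3.75 ± 0.14 in the same comparison. Both were called lower in RGL by edgeR.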
